A study of Mus musculus with 9 samples.

Results

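The genes of the cell cycle were examined in the sciatic nerve of PINCH1 mutant, PINCH2 mutant and control mice as a set of 37 gene entries, out of 25965 entries in the count table. Of the 37, 34 are genes that drive or mark cell division, listed by symbol with earlier results of these data known. The other 3, Cdc23, Exosc9 and Ints8, are the entries that lie on the opposite strand over Kif20a, Ccna2 and Ccne2, with exons that cover some of the same bases. PINCH1 and PINCH2 are LIM domain adaptor proteins, encoded by Lims1 and Lims2, that link integrin-linked kinase to actin at sites of cell adhesion. There were 3 PINCH1 mutant, 3 PINCH2 mutant and 3 control libraries, all from C57BL/6 mice, the controls being littermates. For each library 4 nerves, taken from 1 male and 1 female and stripped of epineurium, were pooled. The age is given as postnatal day 15 in one label and as day 14 in another. The sources used here do not say how the mutants were made, which cells lost the genes or whether the controls carried any allele or driver.

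A cell that divides passes through a phase of DNA synthesis, in which E-type and A-type cyclins activate their kinases and the MCM helicase and the PCNA clamp copy the genome, and then through mitosis, in which B-type cyclins, Aurora and Polo kinases and kinesins build the spindle. The anaphase promoting complex, a ubiquitin ligase, ends mitosis by marking cyclins for destruction. Transcripts of most of these genes are abundant in dividing cells and scarce in resting ones, so they serve as markers of proliferation. In the developing sciatic nerve, Schwann cells divide before and around birth and leave the cycle as they myelinate.

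Library totals ran from 957828 to 1204964 counts, so that a count of 3, the limit that a count of 0 allows, equalled 2.49 to 3.13 CPM (counts scaled by the library's total), for counting error only. The 3 PINCH1 mutant libraries had 0, 1 and 3 counts of Lims1, against 3, 7 and 7 in controls, and the PINCH2 mutants had 5, 1 and 1 counts of Lims2, against 9, 1 and 5 in controls, too few to check the labels. Markers of the myelinating Schwann cell were high in all libraries, summing to 11219 to 12560 CPM in PINCH1 mutants, 10875 to 12905 in PINCH2 mutants and 14389 to 16644 in controls. Neither mutant's range overlapped that of the controls, and 0 of the 9 tested markers passed the test in any comparison. In such bulk samples, fewer cells of a type and less RNA per cell cannot be told apart.

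Most genes that mark dividing cells had next to no counts in any genotype. The test filter, which asks for enough counts in a group's worth of libraries, kept 13 of the 37 entries, against 4738 of all 25965. The 24 entries that did not pass held 162 counts over all 9 libraries together, and 17 of them had 5 counts or fewer. Of the 14895 counts of the whole set, 86.6% fell on the 6 entries of the 3 opposite-strand pairs and 12.3% on the 7 other tested entries. Such a concentration was a feature of the whole table too, since entries with an exon partner on the opposite strand, 24.7% of all entries, held 88.4% of all counts, against 94.3% of the counts of the set. The 12 entries with an exon partner on the opposite strand had a median of 385 counts, and 10 of them were tested, whereas the 25 without one had a median of 4 counts, and 3 were tested. Among all entries of the table, 43.5% of those with a partner and 9.96% of those without one were tested.

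**Figure D1:**
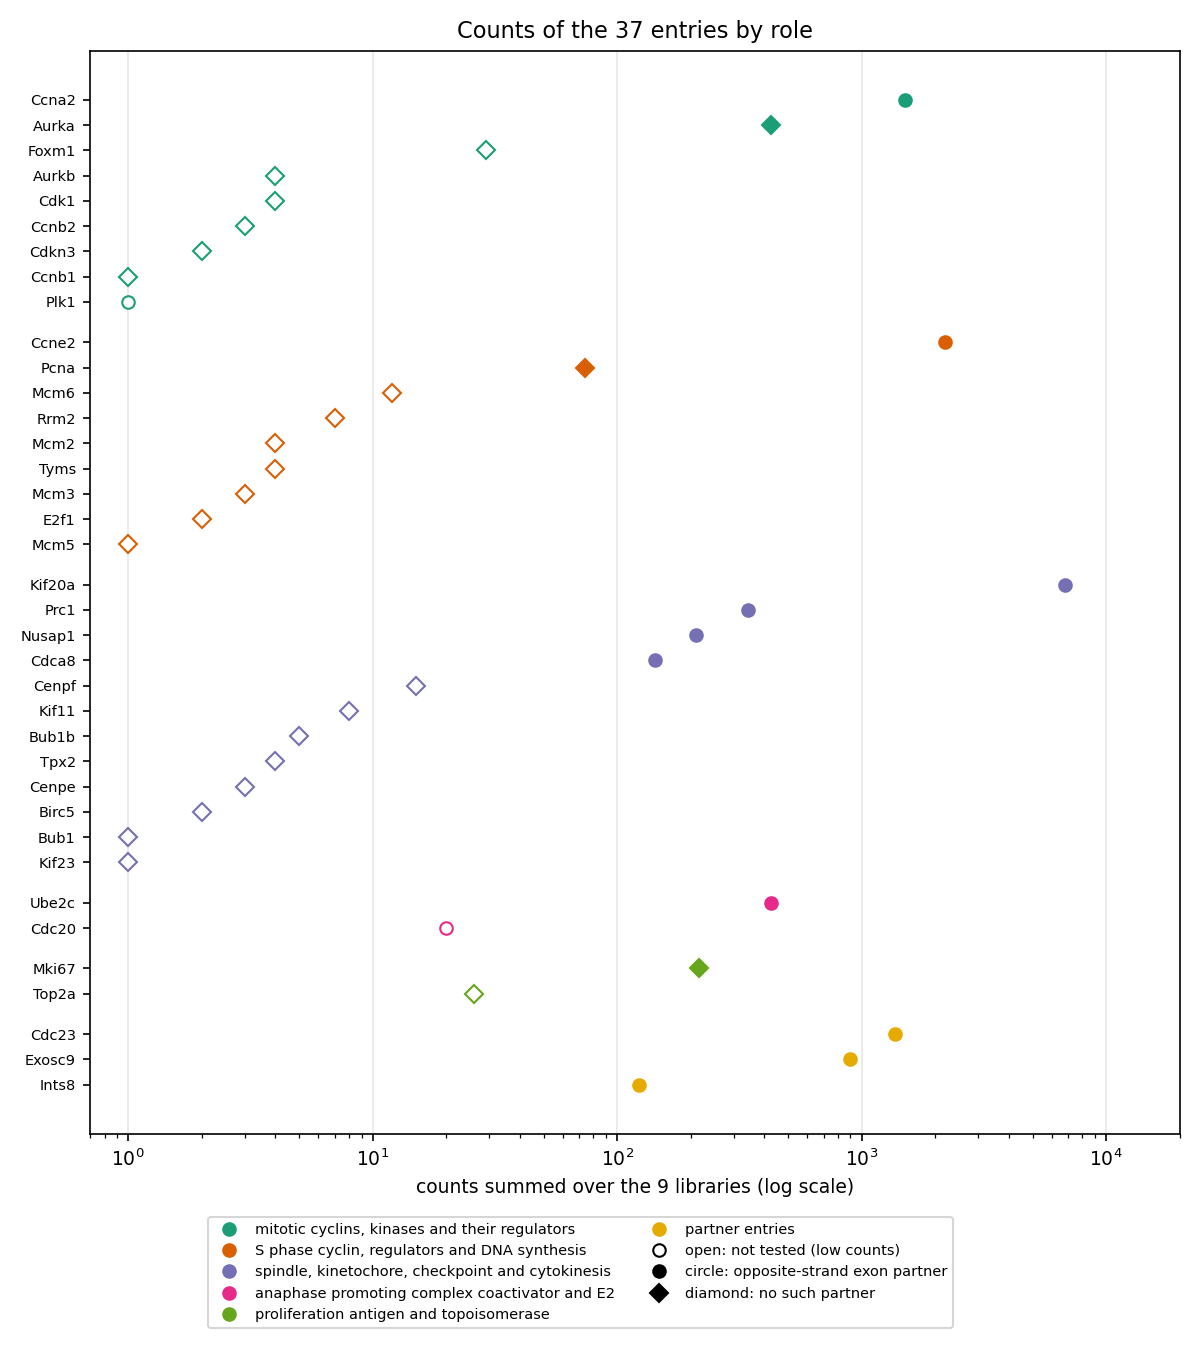
Counts summed over the 9 libraries (log axis) of each of the 37 entries, grouped by role. Filled symbols passed the test filter and circles mark entries with an exon partner on the opposite strand. Kif20a stands at 6801 counts, while most open symbols lie at 5 counts or fewer.

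Most promoters of the set carried letters that are known from this class of gene, among members with and without many counts. Promoter windows from RefSeq (build GRCm38.p6), reaching from 250 bases before to 50 bases after the start, were found for 28 of the 37 members, in 29 windows; those of Aurkb, Ccna2, Ccne2, Cdc23, Exosc9, Foxm1, Ints8, Kif20a and Tpx2 are not shown. Each window was searched on both strands for CCAAT, the box bound by NF-Y, for TTTGAA and for its variant TTTAAA, forms of the cell cycle homology region through which these genes are held silent in resting cells, and for letters of the E2F site, which were TTTGGCGC, or TTTCCCGC, or TTTGCCGC, or else TTTCGCGC. CCAAT stood in 86.2% of the member windows, against 37.4% of all 32851 windows of that length. TTTGAA or TTTAAA stood in 75.9%, against 27.6% of all windows, both CCAAT and one of these in 72.4%, against 10.7%, and E2F letters in 13.8%, against 2.26%. A match is a description of the letters, not of a bound site. The windows of a pair of members with almost no counts (Ccnb2 with 3 and Cdc20 with 20 over all libraries) and of a pair that was counted in every library (Mki67 with 216 and Aurka with 424) are printed so that the letters can be compared, with capitals for CCAAT and for TTTGAA or its variant on either strand (a CCAAT on the other strand reads ATTGG). All 4 lie on the minus strand, at chr9:70421505-70421804 for Ccnb2, chr4:118437294-118437593 for Cdc20, chr7:135716330-135716629 for Mki67 and chr2:172370521-172370820 for Aurka, and read 5′ to 3′ toward the gene.
Ccnb2: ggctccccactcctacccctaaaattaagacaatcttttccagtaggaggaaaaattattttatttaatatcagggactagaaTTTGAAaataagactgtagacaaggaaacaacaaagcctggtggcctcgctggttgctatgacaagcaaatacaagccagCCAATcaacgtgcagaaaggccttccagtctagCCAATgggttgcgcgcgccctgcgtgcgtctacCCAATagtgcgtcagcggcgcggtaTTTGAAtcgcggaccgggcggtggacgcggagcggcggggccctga
Cdc20: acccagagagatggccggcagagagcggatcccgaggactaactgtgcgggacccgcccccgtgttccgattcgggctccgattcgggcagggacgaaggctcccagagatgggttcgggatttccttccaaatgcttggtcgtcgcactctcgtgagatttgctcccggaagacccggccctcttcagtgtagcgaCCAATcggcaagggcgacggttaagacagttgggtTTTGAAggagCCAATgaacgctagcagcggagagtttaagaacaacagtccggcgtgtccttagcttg
Mki67: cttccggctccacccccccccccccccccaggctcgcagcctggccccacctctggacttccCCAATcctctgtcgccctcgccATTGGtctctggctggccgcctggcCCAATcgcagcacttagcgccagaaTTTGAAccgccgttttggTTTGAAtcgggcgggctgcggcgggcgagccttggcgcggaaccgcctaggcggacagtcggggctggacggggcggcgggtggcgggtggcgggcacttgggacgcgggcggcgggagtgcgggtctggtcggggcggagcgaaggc
Aurka: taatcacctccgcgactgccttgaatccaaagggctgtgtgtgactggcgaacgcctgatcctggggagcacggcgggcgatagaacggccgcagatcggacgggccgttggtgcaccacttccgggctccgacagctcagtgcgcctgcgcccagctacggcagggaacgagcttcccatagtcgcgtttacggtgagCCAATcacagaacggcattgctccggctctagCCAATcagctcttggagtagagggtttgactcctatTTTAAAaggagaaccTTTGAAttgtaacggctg
Ccnb2 and Mki67 each held 3 CCAAT boxes and 2 copies of TTTGAA, Cdc20 held 2 and 1, and Aurka held 2 CCAAT boxes with 1 TTTGAA and 1 TTTAAA.

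Among the mitotic cyclins, kinases and their regulators, 7 of 9 entries were not tested. Foxm1, the transcription factor of the late cycle genes, had most of their counts, with 0, 1 and 4 in PINCH1 mutants, 5, 6 and 6 in PINCH2 mutants and 3, 3 and 1 in controls. Aurkb, the Aurora kinase of the chromosomal passenger complex, and Cdk1, the kinase that starts mitosis, had 4 counts each over all libraries. Ccnb1 and Plk1, the main mitotic cyclin and the Polo kinase, had 1 count each, and Ccnb2 and Cdkn3 had 3 and 2. Exons of Plk1 share 156 bases with Gm44985, which was not used here. For Foxm1 all 3 PINCH2 mutant libraries, at 5.02 to 6.03 CPM, lay above those of PINCH1 mutants, at 0 to 3.34 CPM, and of controls, at 0.90 to 3.10 CPM, close to the limit that a count of 0 allows. Of all tested entries, 11% had no overlap between the mutants and 9.05% had none between PINCH2 mutants and controls. In an alternative fit with no filter, the log2 fold change of Foxm1 was 1.23 for PINCH2 mutants minus controls (SE 1.25, edgeR adjusted p = 0.852). In that fit 0 of the 24 entries passed in any comparison, with 0, 1 and 3 at an unadjusted p under 0.05 for PINCH1 mutants minus controls, PINCH2 mutants minus controls and PINCH1 minus PINCH2 mutants. Of the whole table, 15, 1 and 20 entries passed there by adjusted p. The share of all entries at an unadjusted p under 0.05 was not taken for that fit, so the unadjusted counts have no background to be read against.

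The untested members of the remaining roles held few counts too. Of those of S phase, Mcm6, a helicase subunit, had 12 counts in all, Rrm2, the small subunit of ribonucleotide reductase, had 7, and Mcm2, Tyms, Mcm3, E2f1 and Mcm5 had 1 to 4. Of the untested spindle and checkpoint genes, Cenpf, a kinetochore protein, had 15 counts, 12 of them in the second PINCH2 mutant library and 3 in the third control, Kif11, the kinesin that pushes spindle poles apart, had 8, and Bub1b, a checkpoint kinase, had 5. Tpx2, Cenpe, Birc5, Bub1 and Kif23, of the same role, had 1 to 4 counts each. Top2a, the topoisomerase that untangles sister chromatids, had 7, 3 and 3 counts in PINCH1 mutants, 0 in all 3 PINCH2 mutants and 0, 7 and 6 in controls. Cdc20, the coactivator of the anaphase promoting complex, had 3, 0 and 4 counts in PINCH1 mutants, 2, 2 and 5 in PINCH2 mutants and 4, 0 and 0 in controls, while Elovl1, a fatty acid elongase gene whose exons share 53 bases with it, had 376 in all. Summed over the 24 entries, the level was 16.7 ± 3.02 CPM in PINCH1 mutants, 17.3 ± 6.87 in PINCH2 mutants and 16.7 ± 2.18 in controls (SD, n = 3 each).

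The entry with most counts of the set was Kif20a, which encodes a mitotic kinesin needed for cytokinesis, and it stood highest in PINCH1 mutants. Kif20a (build GRCm38, chromosome 18, 34624624 to 34633265, plus strand) had 886, 966 and 1053 counts in PINCH1 mutants, 457, 736 and 552 in PINCH2 mutants and 553, 917 and 681 in controls. Its partner Cdc23 (chromosome 18, 34630951 to 34651735, minus strand), a subunit of the anaphase promoting complex, had 270, 209 and 245 counts in PINCH1 mutants, 53, 142 and 83 in PINCH2 mutants and 39, 212 and 120 in controls. Within the exons of both genes, 1271 bases between 34631146 and 34633277 are shared, which is 29.3% of the exon bases of Kif20a and 13.4% of those of Cdc23. Counts of the one therefore cannot be told apart from transcription of the other.

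After scaling, both entries had no overlap between PINCH1 and PINCH2 mutants. Kif20a averaged 928 ± 150 CPM in PINCH1 mutants, 551 ± 66.0 in PINCH2 mutants and 682 ± 159 in controls, scaled by the TMM method (SD, n = 3 each, as for all means here). Cdc23 averaged 229 ± 22.0 CPM in PINCH1 mutants, 86.1 ± 31.4 in PINCH2 mutants and 116 ± 80.1 in controls, and each PINCH1 mutant library lay above each control as well. The controls spread widely, from 40.3 CPM of Cdc23 in the first to 199.8 in the second.

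The second pair had the same order of means. Ccna2 (chromosome 3, 36564866 to 36572150, minus strand), encoding the cyclin that acts from DNA synthesis to the start of mitosis, had 196, 215 and 265 counts in PINCH1 mutants, 127, 120 and 130 in PINCH2 mutants and 123, 197 and 134 in controls. Exosc9 (chromosome 3, 36552606 to 36565729, plus strand), encoding a ring subunit of the RNA exosome, had 203, 119 and 184 counts in PINCH1 mutants, 25, 94 and 40 in PINCH2 mutants and 24, 150 and 58 in controls. Their ends share 510 exon bases, 12.5% of the exons of Ccna2 and 10.8% of those of Exosc9. In scaled values Ccna2 averaged 215 ± 33.1 CPM in PINCH1 mutants, 122 ± 18.7 in PINCH2 mutants and 144 ± 36.0 in controls, and Exosc9 averaged 158 ± 25.3 CPM in PINCH1 mutants, 48.4 ± 27.0 in PINCH2 mutants and 72.7 ± 61.0 in controls. All 3 PINCH1 mutant libraries were above all 3 PINCH2 mutant libraries for both entries, whereas the second control, at 186 CPM of Ccna2 and 141 CPM of Exosc9, reached into the range of the PINCH1 mutants.

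In the third pair no groups separated, and only Ints8 had the order of means of the Kif20a and Ccna2 pairs. Ccne2 (chromosome 4, 11191351 to 11204779, plus strand), encoding a cyclin of the entry into S phase, had 291, 282 and 217 counts in PINCH1 mutants, 192, 262 and 293 in PINCH2 mutants and 239, 225 and 193 in controls. Ints8 (chromosome 4, 11199158 to 11254258, minus strand), a subunit of the Integrator complex that cleaves nascent RNA, had 18, 16 and 13 counts in PINCH1 mutants, 11, 17 and 9 in PINCH2 mutants and 8, 24 and 7 in controls. All groups overlapped for both entries, and the means of Ccne2, 256 ± 70.0 CPM in PINCH1 mutants, 239 ± 48.7 in PINCH2 mutants and 211 ± 37.1 in controls, differed from each other by less than the SD within PINCH1 mutants. Ints8 averaged 15.1 ± 3.82 CPM in PINCH1 mutants, 11.6 ± 2.59 in PINCH2 mutants and 12.4 ± 8.92 in controls. The 609 shared exon bases are 17.4% of the exons of Ccne2 and 8.15% of those of Ints8.

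**Figure D2:**
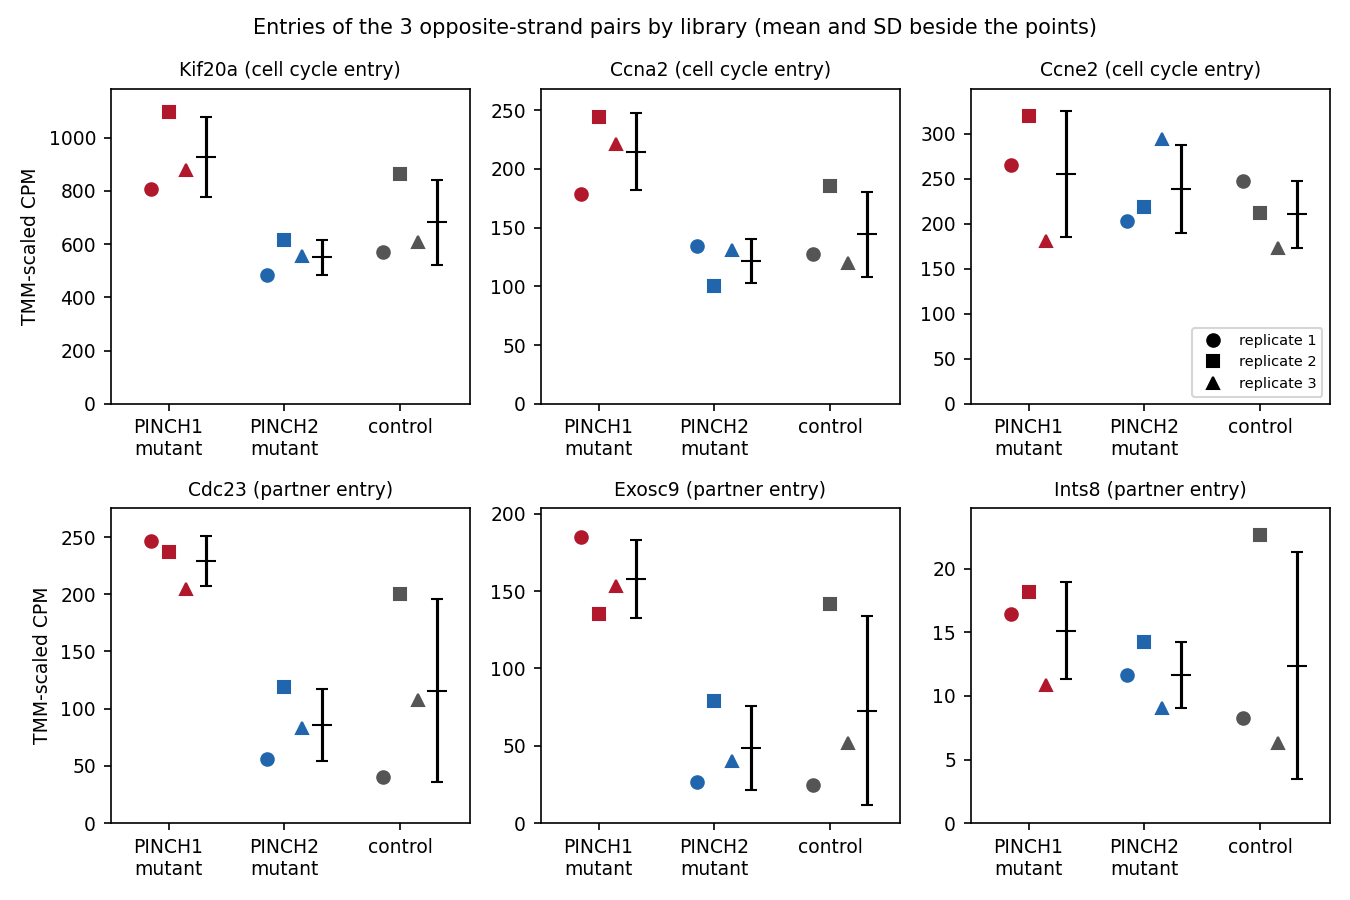
TMM-scaled CPM of the 6 entries of the opposite-strand pairs in each library, with mean and SD beside the points (n = 3 per genotype), the cell cycle entry above its partner. PINCH1 mutants lie above PINCH2 mutants without overlap for Kif20a, Cdc23, Ccna2 and Exosc9, and all genotypes overlap for Ccne2 and Ints8.

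As the counts were deposited, the cell cycle entry had the higher level per kilobase of exon in each pair. Over all libraries the level per kilobase of Kif20a was 10.8 times that of Cdc23, that of Ccna2 1.94 times that of Exosc9 and that of Ccne2 38.1 times that of Ints8. These values rank the entries and not the transcripts of the genes, because they rest on a strand setting that the sources used here do not give. The split within a pair varied between libraries. Cdc23 ranged from 39 to 270 counts while Kif20a ranged from 457 to 1053, and Exosc9 ranged from 24 to 203 while Ccna2 ranged from 120 to 265. Kif20a had 3.28, 4.62 and 4.30 counts for each count of Cdc23 in PINCH1 mutants, 8.62, 5.18 and 6.65 in PINCH2 mutants and 14.2, 4.33 and 5.68 in controls. The mean log2 ratio was 2.01 ± 0.26 in PINCH1 mutants, 2.73 ± 0.36 in PINCH2 mutants and 2.81 ± 0.89 in controls. The ratio was lower in every PINCH1 mutant than in every PINCH2 mutant library, with a log2 difference of -0.72, which gave a two-sided exact permutation p of 0.1, the smallest that 3 against 3 libraries allow, and 0.675 after Benjamini-Hochberg adjustment over 9 ratio comparisons.

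The ratio of Ccna2 to Exosc9 was 0.966, 1.81 and 1.44 in PINCH1 mutants, 5.08, 1.28 and 3.25 in PINCH2 mutants and 5.13, 1.31 and 2.31 in controls, all groups overlapping. Its log2 differences were -0.87 for PINCH1 mutants minus controls, 0.14 for PINCH2 mutants minus controls and -1.01 for PINCH1 minus PINCH2 mutants, with two-sided exact permutation p of 0.3, 1 and 0.3. The ratio of Ccne2 to Ints8 ran from 9.38 to 32.6 over the libraries, and its 3 log2 differences lay between -0.28 and 0.07 (exact permutation p of 0.8 to 0.9). For Kif20a to Cdc23, the differences from controls were -0.80 in PINCH1 mutants and -0.08 in PINCH2 mutants (exact permutation p of 0.2 and 0.9). None of the 9 comparisons passed after adjustment.

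This spread of the split was set beside other opposite-strand pairs of the table. Over 1989 other pairs with at least 50 counts, the share of the counts on the smaller entry was 6.82 to 7.47% in PINCH1 mutants, 6.83 to 7.15% in PINCH2 mutants and 6.69 to 7.33% in controls. Exosc9 held 50.9, 35.6 and 41.0% of its pair's counts in PINCH1 mutants, 16.4, 43.9 and 23.5% in PINCH2 mutants and 16.3, 43.2 and 30.2% in controls. Over all libraries Cdc23 held 6.59 to 23.4% of the counts of its pair, and Ints8 held 2.98 to 9.64%. The share of Exosc9 thus ran over a wide range inside the PINCH2 mutants and the controls, although a share pooled over many pairs varies less than that of any single pair.

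Exosc9 and Cdc23, partners in different pairs on different chromosomes, followed each other over the 9 libraries. The relation was looked for after the values had been seen, among all 78 combinations of the 13 tested entries on log2(CPM + 1). Pearson's r was 0.98 (exact permutation p = 1.93e-05, adjusted p = 0.0015 over the 78) and Spearman's rho was 0.95 (exact permutation p = 0.000353, adjusted p = 0.0275). Without the 2 libraries farthest from the median of Exosc9, r was 0.97, and after subtraction of each genotype's mean it was 0.96. The permutations exchanged all 9 libraries across genotypes, so these p-values also take in differences between genotypes that both entries share. No p was taken for the r after subtraction. No other of the 78 combinations passed the adjustment. The next were Kif20a with Exosc9 (r = 0.88, exact permutation p = 0.00425, adjusted p = 0.0828) and Kif20a with Cdc23 (r = 0.88, exact permutation p = 0.00343, adjusted p = 0.0828), whereas Ccna2 with its own partner Exosc9 had r = 0.70 (exact permutation p = 0.0432, adjusted p = 0.338).

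**Figure D3:**
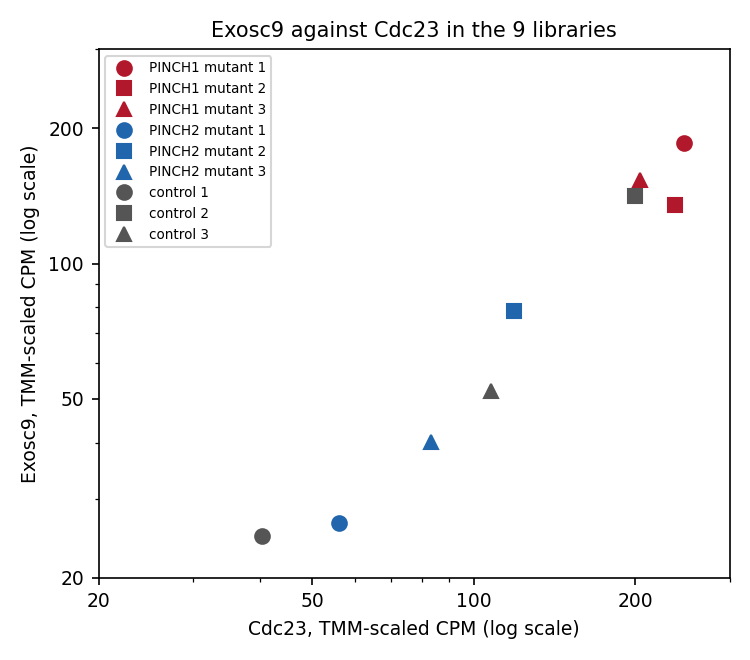
TMM-scaled CPM of Exosc9 against Cdc23 in the 9 libraries (log axes), coloured by genotype and shaped by replicate. The second control lies among the 3 PINCH1 mutants, and the first control and the first PINCH2 mutant lie lowest.

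The tested entries outside the pairs had 74 to 427 counts each over all libraries. Aurka, the kinase of the centrosome, had 72, 50 and 34 counts in PINCH1 mutants, 42, 37 and 51 in PINCH2 mutants and 49, 56 and 33 in controls. Mki67, the antigen that coats mitotic chromosomes, had 21, 22 and 21 counts in PINCH1 mutants, 22, 37 and 21 in PINCH2 mutants and 27, 15 and 30 in controls. The genotypes overlapped for both. Neither has an exon partner, though Cstf1 starts 146 bp from Aurka on the other strand (10 counts in all), and Mki67 holds Gm45240, an annotated transcript on the other strand, in its span.

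Of the spindle genes, Prc1, which bundles the microtubules of the spindle midzone, had 17, 33 and 52 counts in PINCH1 mutants, 41, 43 and 62 in PINCH2 mutants and 40, 28 and 27 in controls. It shares 911 exon bases with Rccd1, which had 0 counts. Nusap1, a microtubule-binding protein of the spindle, had 29, 21 and 17 counts in PINCH1 mutants, 29, 35 and 25 in PINCH2 mutants and 8, 14 and 33 in controls, and Cdca8, the borealin subunit of the chromosomal passenger complex, had 17, 14 and 20 counts in PINCH1 mutants, 14, 22 and 13 in PINCH2 mutants and 17, 12 and 14 in controls. Their partners Oip5 and 9930104L06Rik had 6 and 4 counts in all. For these 3 entries the higher means in PINCH2 mutants than in controls (47.2 ± 13.6 against 30.6 ± 9.34 CPM for Prc1, 28.4 ± 2.90 against 17.0 ± 11.1 for Nusap1 and 15.4 ± 2.72 against 13.8 ± 3.32 for Cdca8) came with overlapping libraries.

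Pcna, the sliding clamp of DNA replication, was the entry with fewest counts that was tested. It had 13, 13 and 9 counts in PINCH1 mutants, 5, 8 and 3 in PINCH2 mutants and 8, 11 and 4 in controls. Its means were 11.4 ± 3.64 CPM in PINCH1 mutants, 5.0 ± 1.86 in PINCH2 mutants and 7.41 ± 3.47 in controls, with no overlap between the mutants. The lowest of these values, 3 counts in the third PINCH2 mutant library and 4 in the third control, lie at or next to the limit that a count of 0 allows.

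Ube2c, the ubiquitin-conjugating enzyme that works with the anaphase promoting complex, owed most of its counts in each mutant to a single library. It had 0, 255 and 8 counts in PINCH1 mutants, 9, 110 and 7 in PINCH2 mutants and 14, 3 and 21 in controls. The high libraries were the second of both mutants, and the remaining 7 held 0 to 21 counts. Ube2c shares 592 exon bases with Tnnc2, the troponin C gene of fast skeletal muscle, which is 74% of the exons of Tnnc2. Tnnc2 had 0 counts in all 9 libraries. Markers of skeletal muscle summed to 23 counts over all libraries, with Acta1 at 0, and to 3 and 1 counts in the second PINCH1 mutant and the second PINCH2 mutant library. As the strand setting is not given, such low counts do not show that RNA of Tnnc2 or of muscle was absent. The source of the Ube2c counts was not tested.

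**Figure D4:**
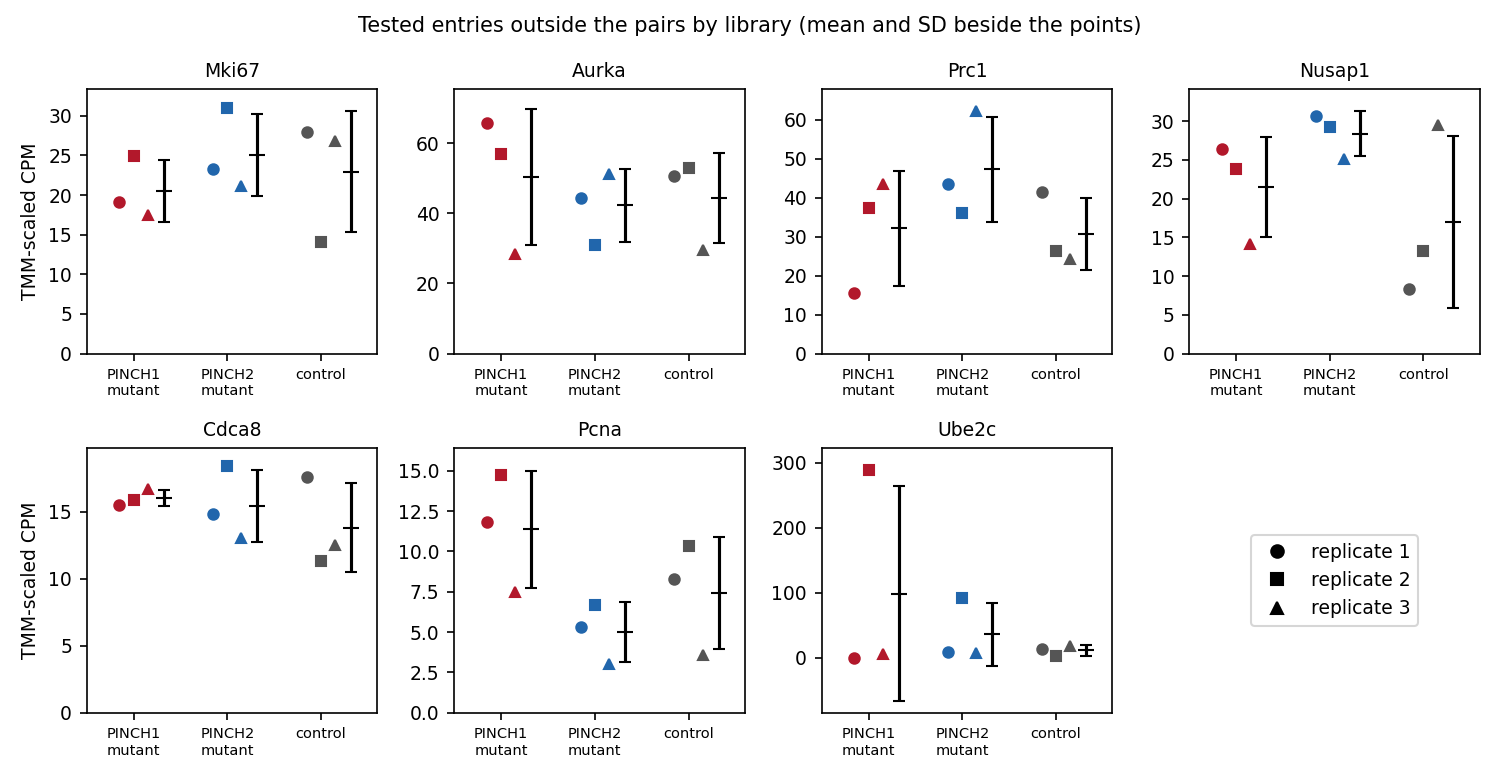
TMM-scaled CPM of the 7 tested entries outside the pairs in each library, with mean and SD beside the points (n = 3 per genotype). The second library of each mutant sets the scale of Ube2c, at 289 CPM in PINCH1 mutants and 92.0 CPM in PINCH2 mutants, and the genotypes overlap in most other panels.

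Between PINCH1 mutants and controls, most tested entries had higher values in PINCH1 mutants, and none passed. By edgeR's quasi-likelihood test, 0 of 13 had an adjusted p under 0.05, where 0.0633% of all tested entries did, and 2 (Ccna2 and Kif20a) had an unadjusted p under 0.05, where 6.37% did. The log2 fold change was above 0 in 12 of 13 entries, against 47.8% of all tested entries, with a median of 0.31 against -0.02. Outside the pairs it was above 0 in 6 of 7, with a median of 0.22. Among all tested entries with an exon partner it was above 0 in 1565 of 2792 (median 0.05). Among those without one it was above 0 in 698 of 1946 (median -0.17). Of the 13 members, 10 have such a partner. The values were 0.57 for Ccna2 (SE 0.21, edgeR adjusted p = 0.599), 0.44 for Kif20a (SE 0.18, edgeR adjusted p = 0.65), 0.98 for Cdc23 (SE 0.50, edgeR adjusted p = 0.784) and 1.11 for Exosc9 (SE 0.61, edgeR adjusted p = 0.806). Only Cdc23 had no overlap between the groups, where 13.7% of all tested entries had none. Ube2c had the largest value of the 13, 2.99 (SE 2.05, edgeR adjusted p = 0.867), which was -1.76 without the second PINCH1 mutant library. Exosc9 passed without the second control library (2.03, edgeR adjusted p = 0.0423), and the median of the 13 was then 0.65.

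Between PINCH2 mutants and controls the set was centred near 0. Of the 13 entries, 0 passed by edgeR's adjusted p, against 0.0211% of all tested entries, 0 had an unadjusted p under 0.05, against 4.26%, and 0 had groups without overlap, against 9.05%. The log2 fold change was above 0 in 6 of 13, against 50.7% of all, with a median of -0.07 against 0.00. Outside the pairs it was above 0 in 5 of 7, with a median of 0.17. Among all tested entries with an exon partner it was above 0 in 1621 of 2792 (median 0.04). Among those without one it was above 0 in 779 of 1946 (median -0.12). The 4 entries of the Kif20a and Ccna2 pairs lay below 0, with -0.31 for Kif20a (SE 0.18), -0.25 for Ccna2 (SE 0.21), -0.42 for Cdc23 (SE 0.52) and -0.57 for Exosc9 (SE 0.64). Nusap1 was at 0.72 (SE 0.42), Prc1 at 0.62 (SE 0.37) and Ube2c at 1.62 (SE 2.09), and the edgeR adjusted p was 0.999 for all 13. Without the second control library Exosc9 was at 0.34, Cdc23 at 0.22 and the median at 0.19, and without the second PINCH2 mutant library Ube2c was at -0.52.

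The 2 mutants set against each other, in a comparison that shares its libraries with those above, gave the most entries without overlap. By edgeR's adjusted p 0 of 13 entries passed, against 0.0844% of all tested entries, while 4 had an unadjusted p under 0.05, against 6.35%. The groups did not overlap in 5 entries (Kif20a, Cdc23, Ccna2, Exosc9 and Pcna), all higher in PINCH1 mutants, where 11% of all tested entries had no overlap and 5.42% were higher without overlap. The log2 fold change was 0.75 for Kif20a (SE 0.18) and 0.82 for Ccna2 (SE 0.21), ranks 8 and 18 by p among all 4738 tested entries, each with an edgeR adjusted p of 0.213. Cdc23 was at 1.40 (SE 0.51) and Exosc9 at 1.69 (SE 0.63), both with an edgeR adjusted p of 0.779, and Pcna at 1.14 (SE 0.72, edgeR adjusted p = 0.909). The log2 fold change was above 0 in 10 of 13 entries, against 47.4% of all, with a median of 0.36 against -0.02. Outside the pairs it was above 0 in 4 of 7, with a median of 0.05. Among all tested entries with an exon partner it was above 0 in 1373 of 2792 (median -0.0077). Among those without one it was above 0 in 875 of 1946 (median -0.06). Kif20a and Cdc23 passed under weaker filters on low counts (edgeR adjusted p of 0.0272 and 0.00547 with no filter), and Cdc23 and Exosc9 passed when the controls were left out of the fit (edgeR adjusted p of 0.00634 and 0.0181). Leaving out the first control alone let Cdc23 pass (edgeR adjusted p = 0.0437), and leaving out the second let Exosc9 pass (edgeR adjusted p = 0.0491).

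**Figure D5:**
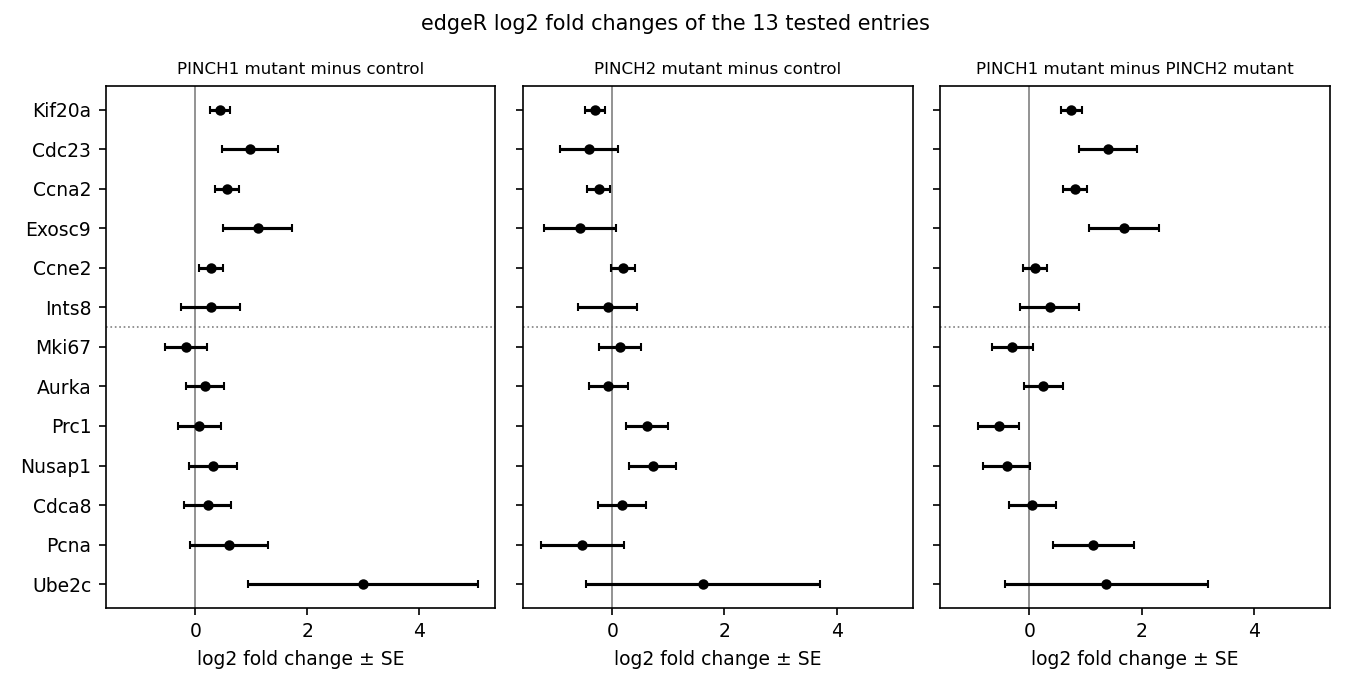
Log2 fold changes from edgeR with SE for the 13 tested entries in the 3 comparisons, the 6 entries of the pairs above the dotted line. Kif20a, Cdc23, Ccna2 and Exosc9 are above 0 for PINCH1 mutants minus controls and below 0 for PINCH2 mutants minus controls, and no entry passed the adjusted p of 0.05.

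A test of any difference among the 3 genotypes gave the same count, 0 of 13 by edgeR's adjusted p against 0.0844% of all tested entries, with 2 under an unadjusted p of 0.05 against 5.51%. Kif20a and Ccna2 had the smallest values (edgeR adjusted p of 0.347 and 0.383).

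Summed over all 37 entries, the level was 2068 ± 402 CPM in PINCH1 mutants, 1275 ± 160 in PINCH2 mutants and 1403 ± 322 in controls. The pairs held most of that difference. Without their 6 entries the sum was 267 ± 184 CPM in PINCH1 mutants, 217 ± 45.7 in PINCH2 mutants and 165 ± 17.5 in controls, and without Ube2c as well it was 169 ± 24.3 CPM in PINCH1 mutants, 181 ± 6.27 in PINCH2 mutants and 153 ± 13.5 in controls. The log2 difference of the sum between PINCH1 and PINCH2 mutants was 0.69 for all entries and 0.11 without the pairs. The 3 cell cycle entries of the pairs summed to 1398 ± 228 CPM in PINCH1 mutants, 912 ± 81.7 in PINCH2 mutants and 1037 ± 196 in controls, a log2 difference of 0.61 between PINCH1 and PINCH2 mutants. For the 3 partner entries that log2 difference was 1.54, with sums of 402 ± 40.8 CPM in PINCH1 mutants, 146 ± 59.9 in PINCH2 mutants and 201 ± 148 in controls. Fibroblast markers, of cells that can divide in the nerve, summed to 848 to 912 CPM in PINCH1 mutants, 562 to 919 in PINCH2 mutants and 673 to 1345 in controls, and macrophage markers to 511 to 632 CPM in PINCH1 mutants, 483 to 652 in PINCH2 mutants and 541 to 672 in controls. The macrophage sum was nearly that of a single entry. Csf1r held 5466 of the 5535 counts of its 6 markers, with Aif1 at 0, and 1 of the 6 was tested. Markers of endothelial cells, lymphocytes and mast cells summed to 136, 17 and 4 counts over all libraries, and those of neutrophils were at 0. Their part in the levels of the set was not tested.

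The wider machinery of the cycle was read from 9 further lists of 163 symbols, of which 162 were in the table and 40 were tested, 26 of these with an exon partner on the opposite strand. None of the 40 passed edgeR's adjusted p in any comparison, and 2, 0 and 2 had an unadjusted p under 0.05 for PINCH1 mutants minus controls, PINCH2 mutants minus controls and PINCH1 minus PINCH2 mutants, against 6.37, 4.26 and 6.35% of all tested entries. The log2 fold change was above 0 in 23, 20 and 18 of the 40 in those comparisons, against 47.8, 50.7 and 47.4% of all, with medians of 0.07, -0.0022 and -0.04 against -0.02, 0.00 and -0.02. The entries of the anaphase promoting complex besides Cdc23 were 6 tested of 16, with 4 above 0 for PINCH1 mutants minus controls and 2 above 0 for PINCH1 minus PINCH2 mutants. Cdc27, a subunit related to Cdc23, averaged 22.0 ± 3.42 CPM in PINCH1 mutants, 26.5 ± 8.78 in PINCH2 mutants and 21.1 ± 6.98 in controls. Of the 24 genes of the kinetochore and the spindle checkpoint, 0 were tested, with 192 counts between them.

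Genes that hold cells out of the cycle, or that act at its start, were among those tested. Among the CDK inhibitors, Cdkn1b, which encodes p27, averaged 18.5 ± 5.68 CPM in PINCH1 mutants, 25.8 ± 11.7 in PINCH2 mutants and 29.1 ± 4.82 in controls, and its log2 fold change in PINCH1 mutants against controls was -0.66 (SE 0.39, edgeR adjusted p = 0.803). Cdkn1a, encoding p21, over AC167363.2, averaged 33.8 ± 6.19 CPM in PINCH1 mutants, 41.8 ± 11.7 in PINCH2 mutants and 43.2 ± 10.4 in controls. Cyclin D1, Ccnd1, over LTO1, averaged 124 ± 14.1 CPM in PINCH1 mutants, 126 ± 7.21 in PINCH2 mutants and 107 ± 22.5 in controls, and its kinase Cdk4, which shares exon bases with Tspan31, averaged 2880 ± 638 CPM in PINCH1 mutants, 2436 ± 268 in PINCH2 mutants and 2575 ± 245 in controls. The pocket protein genes Rb1, over Rcbtb2 and Lpar6, and Rbl2, over Aktip and Gm45464, whose products hold E2F factors in check, had log2 fold changes of 0.09 (SE 0.18) and -0.27 (SE 0.17) in PINCH1 mutants against controls and 0.02 (SE 0.18) and -0.10 (SE 0.17) in PINCH2 mutants against controls, with edgeR adjusted p of 0.835 or above.

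The remaining lists were those of replication, mitotic entry, kinesins and condensins, with the second entry of the anaphase promoting complex. In the replication list, Rfc5, a clamp loader subunit over Wsb2, averaged 3313 ± 517 CPM in PINCH1 mutants, 3590 ± 363 in PINCH2 mutants and 3565 ± 568 in controls. Gins2, a subunit of the replicative helicase over Gse1, averaged 813 ± 107 CPM in PINCH1 mutants, 641 ± 21.2 in PINCH2 mutants and 619 ± 106 in controls, with a log2 fold change of 0.39 (SE 0.16, edgeR adjusted p = 0.669) in PINCH1 mutants against controls. Pkmyt1, a kinase that restrains entry into mitosis, over Paqr4, averaged 726 ± 77.8 CPM in PINCH1 mutants, 799 ± 126 in PINCH2 mutants and 765 ± 81.3 in controls. Kinesins move microtubules and chromosomes in mitosis, and condensins compact the chromosomes. The mitotic kinesin entry Kif4, over Pdzd11, averaged 70.5 ± 16.8 CPM in PINCH1 mutants, 58.9 ± 13.8 in PINCH2 mutants and 52.9 ± 4.70 in controls, and Ncaph2, a condensin subunit over Tymp and Sco2, averaged 363 ± 21.7 CPM in PINCH1 mutants, 319 ± 56.8 in PINCH2 mutants and 345 ± 73.1 in controls. Of the second entries of these lists, Bora, an activator of Aurora A listed as 6720463M24Rik, averaged 37.6 ± 8.03 CPM in PINCH1 mutants, 33.6 ± 3.45 in PINCH2 mutants and 31.1 ± 8.60 in controls, and Anapc11, a ring subunit of the anaphase promoting complex, averaged 18.3 ± 13.4 CPM in PINCH1 mutants, 12.98 ± 1.29 in PINCH2 mutants and 17.3 ± 4.04 in controls. Kif22, a chromosome-bound kinesin over Gm31749, averaged 12.5 ± 3.71 CPM in PINCH1 mutants, 10.8 ± 5.39 in PINCH2 mutants and 12.8 ± 7.75 in controls, and Ncapg, a condensin subunit over Lcorl, averaged 205 ± 56.8 CPM in PINCH1 mutants, 225 ± 81.8 in PINCH2 mutants and 187 ± 33.9 in controls. None of these entries passed the test in any comparison.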

How the data were processed

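RNA from 9 pools of sciatic nerves was made into TruSeq libraries, per the labels, and sequenced. The submitters' processing notes name HISAT2 2.0.5, Trim Galore 0.4.2, cutadapt 1.9.1 and the build GRCm38. Not given in the sources used here are the strandedness of the libraries and the counter with its annotation and strand setting. The authors deposited whole-number counts per gene entry with no scaling, in a table of which all columns of values and all entries were used.

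Entries were matched by identifier to GENCODE release 21 for mouse (96.4% found), and exons on opposite strands were intersected with bedtools 2.31.1. An entry with such an overlap has a partner, and nearest opposite-strand genes within 5000 bp were also listed. Differences were tested with edgeR 4.0.16 in R 4.3.3 (TMM scaling, filterByExpr, robust quasi-likelihood F-test, genotype as the only term, all 9 libraries in 1 model). Adjusted p-values are Benjamini-Hochberg values over the 4738 entries that were tested, and 0.05 was the threshold. The SE is the absolute log2 fold change over the square root of F. Means and SD were taken over TMM-scaled CPM. Ratios within a pair were log2 of counts with 0.5 added, compared by exact permutation of libraries. The labels give no batch. Replicates are pools, so p-values measure the spread between pools.

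The members, gene lists and tests were chosen with earlier results of these data known. By the rule for named genes, every tested member is given with its values in each library, members not tested are given by role with the 3 of most counts in each, and each wider list, where none of its entries passed, is read from the 2 of highest mean level. The further untested members named were added so that all 37 are accounted for. Relations between members, the shares of counts in other pairs and the entries most like Cdc23 were added after the values were seen. Procedures were tested on simulated data. The alternatives were other scalings (RLE, upper quartile, and TMM without the 20 entries of highest counts), DESeq2 1.42.0, limma-voom (limma 3.58.1), other filters, the 6 libraries compared alone, a block for the replicate number, a threshold of 0.01, each library left out, and, chosen after seeing the data, entries with and without a partner scaled separately and the sum without Kif20a and Cdc23.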

Additional observations from a re-analysis of the deposited data

Results flagged for a closer look

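In 3 entries every PINCH1 mutant library lay above the mean of the controls and every PINCH2 mutant library below it (Ccna2, Kif20a and Pcna). None of them passed against controls in either mutant. For PINCH1 mutants minus controls the log2 fold changes were 0.57 for Ccna2 (SE 0.21), 0.44 for Kif20a (SE 0.18) and 0.60 for Pcna (SE 0.69), and for PINCH2 mutants minus controls they were -0.25 (SE 0.21), -0.31 (SE 0.18) and -0.54 (SE 0.74), with overlapping groups in each case. The log2 fold changes of PINCH1 minus PINCH2 mutants were 0.82 for Ccna2 (SE 0.21), 0.75 for Kif20a (SE 0.18) and 1.14 for Pcna (SE 0.72). The difference between the mutants was itself tested by edgeR and did not pass, with adjusted p of 0.213 for Ccna2 and Kif20a and 0.909 for Pcna. Ccna2 and Kif20a lie over Exosc9 and Cdc23, whose scaled levels in all PINCH1 mutant libraries also exceeded those in all PINCH2 mutant libraries, and Pcna had 3 to 13 counts per library. Groups of 3 libraries were not screened for single outlying values.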

How the results depend on the processing

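Of 741 log2 fold changes of tested members over all alternatives, 702 kept their direction and their side of the threshold, 9 passed where they had not and 30 changed direction. Members that passed for PINCH1 minus PINCH2 mutants numbered 0 in the reported fit, 2 with no filter, 2 with a filter of 1 CPM in 3 libraries and 2 in the 6 libraries compared alone. For any difference among genotypes, 0 passed in the reported fit, and 1 (Cdc23) with no filter and with the 1 CPM filter. These settings change which entries are tested together or which libraries enter, and the scaling and the spread were estimated anew in each. Leaving out 1 library gave 0 to 1 for PINCH1 mutants minus controls, for PINCH1 minus PINCH2 mutants and for any difference; Exosc9 passed without the second control in both pairwise comparisons, and Cdc23 passed for PINCH1 minus PINCH2 mutants without the first control.

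Entries of the whole table that passed for PINCH1 mutants minus controls were 3 as reported, 6 by DESeq2, 1 by limma-voom, 15 with no filter, 16 with the 1 CPM filter, 1 in the 6 libraries alone, 1 at a threshold of 0.01 and 1 to 9 with a library left out. For PINCH2 mutants minus controls they were 1 as reported, 0 in the 6 libraries alone, 0 at 0.01 and 0 to 1 with a library left out. For PINCH1 minus PINCH2 mutants they were 4 as reported, 10 by DESeq2, 20 with no filter, 27 with the 1 CPM filter, 11 in the 6 libraries alone and 3 to 9 with a library left out. The cause of these shifts was not tested.

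The median of the members for PINCH1 minus PINCH2 mutants was 0.36 as reported and 0.81 with no filter, which adds entries of very few counts. With a library left out, the median lay between 0.23 and 0.65 for PINCH1 mutants minus controls and between -0.30 and 0.19 for PINCH2 mutants minus controls, the higher ends without the second control. Without the 3 pairs the log2 sum was 0.38 for PINCH2 mutants minus controls, against -0.12 with them, and 0.11 for PINCH1 minus PINCH2 mutants.

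Directions turned in fold changes near 0 or resting on 1 library. With limma-voom Prc1 was at -0.012 and Ube2c at -0.59 for PINCH1 mutants minus controls, Ints8 at 0.14 for PINCH2 mutants minus controls and Ube2c at -1.68 for PINCH1 minus PINCH2 mutants. With entries scaled separately by partner, an alternative chosen after seeing the data, Mki67 was at 0.0090 for PINCH1 mutants minus controls and Aurka at 0.033 for PINCH2 mutants minus controls. With a library left out, values for PINCH1 mutants minus controls ran from -0.073 to 0.47 for Aurka, -0.23 to 0.41 for Prc1, -1.76 to 3.59 for Ube2c and -0.049 to 1.04 for Ints8. For PINCH2 mutants minus controls they ran from -0.30 to 0.12 for Aurka, -0.52 to 2.12 for Ube2c, -0.12 to 0.31 for Mki67, -1.11 to 0.34 for Exosc9, -0.41 to 0.68 for Ints8 and -0.81 to 0.22 for Cdc23. For PINCH1 minus PINCH2 mutants they ran from -0.00021 to 0.54 for Aurka, -0.10 to 0.29 for Ccne2, -0.070 to 0.19 for Cdca8 and -3.38 to 3.50 for Ube2c. The log2 ratio of Ccne2 to Ints8 ran from -0.72 to 0.083 for PINCH1 mutants minus controls, -0.45 to 0.36 for PINCH2 mutants minus controls and -0.48 to 0.043 for PINCH1 minus PINCH2 mutants. For PINCH2 mutants minus controls, that of Kif20a to Cdc23 ran from -0.42 to 0.43 and that of Ccna2 to Exosc9 from -0.31 to 0.70.

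For libraries of the same replicate number, the correlation of their deviations from the group means ran from -0.11 to 0.25. It was not above 0.1 in every case. For libraries of different numbers it ran from -0.20 to 0.14. Whether an equal number marks a shared batch was not tested. With the replicate block 5, 0 and 6 entries passed for PINCH1 mutants minus controls, PINCH2 mutants minus controls and PINCH1 minus PINCH2 mutants, 0 members among them, and Ints8 was at 0.011 for PINCH2 mutants minus controls. The 24 untested members had too few counts to pass the filter, and 17 of them had 5 counts or fewer. The cause of their low counts was not tested.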

Other observations

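Further genes of the complexes to which the partner entries Exosc9 and Ints8 belong were read for their levels. The deposited counts covered 9 other genes of the RNA exosome, of which 2 were tested. Exosc8, a ring subunit over Supt20, averaged 32.8 ± 4.59 CPM in PINCH1 mutants, 36.5 ± 8.08 in PINCH2 mutants and 35.4 ± 5.09 in controls, and Exosc3, a cap subunit over Dcaf10, averaged 23.4 ± 3.01 CPM in PINCH1 mutants, 29.2 ± 1.94 in PINCH2 mutants and 22.0 ± 10.9 in controls (SD, n = 3 each). For PINCH1 minus PINCH2 mutants their log2 fold changes were -0.16 (SE 0.32) and -0.32 (SE 0.37), with edgeR adjusted p of 0.99 and 0.978, and their difference from Exosc9 was not tested. They covered 11 other genes of the Integrator complex, of which 3 were tested and none passed. Ints2, over Brip1os, averaged 99.6 ± 26.8 CPM in PINCH1 mutants, 105 ± 24.9 in PINCH2 mutants and 107 ± 27.7 in controls. The entry of its nuclease subunit, listed as Cpsf3l and over Pusl1, averaged 244 ± 33.3 CPM in PINCH1 mutants, 229 ± 39.9 in PINCH2 mutants and 250 ± 26.2 in controls.

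Among the 4737 other tested entries, Exosc9 had the highest correlation with Cdc23 over the 9 libraries, a comparison made after the values were seen. It was followed by B230398E01Rik (r = 0.98) and Tex9 (r = 0.96), while Gm20650 (r = -0.99) and Rpl23a, a ribosomal protein gene (r = -0.97), lay at the other end. In all, 19 entries had r of at least 0.9 and 12 had r of at most -0.9. These are descriptions over the same 9 libraries, which share depth and scaling.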
